A study of Rattus norvegicus with 8 samples.

Results

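Cfap206, Spata18 and Ccdc185 are 3 genes of cilia and testis among the 246 genes for which the study listed a promoter region that was more methylated in dimethylarsinic acid (DMA)-induced rat urothelial carcinomas (UCs) than in normal bladder. The members were chosen by name from that list, and the CpGs up to 1 kb on either side of each listed region were added. They were chosen for a contrast: the listed region of Ccdc185 was already highly methylated in the controls, whereas those of Cfap206 and Spata18 were not. In all, 74 CpGs were measured, of which 63 had at least 3 reads in each of the 8 samples.

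The UC group consisted of 5 macroscopic bladder tumours over 5 mm from male F344/DuCrj rats that drank water with 200 ppm DMA from 10 weeks of age for 104 weeks, and the control group of 3 bladders from rats of the same strain, sex and age given 0 ppm. The labels call the control tissue urothelium, whereas the methods speak of bladder tissue. No histology was done on these tumours, and the sources used here do not say whether they came from 5 animals, so the spread between UCs may in part be that within an animal. Methylation was measured by reduced representation bisulfite sequencing (RRBS), in which DNA is cut with MspI and TaqI at CpG-containing sites, treated with bisulfite and sequenced, so that a methylated cytosine is read as C and an unmethylated one as T. A methylation level is the share of C among the C and T calls. These calls hold no expression, so neither the tissue nor the activity of the genes could be checked against marker genes. The study also measured expression in the same UCs by microarray, which was not used here. Neither Cfap206, Spata18 nor Ccdc185 is among the genes that it lists as both hypermethylated and downregulated. Each sample had 51434938 to 73836223 calls, with a median of 14 to 18 reads per CpG. Over the genome UC 3 was nearer to the controls than the other UCs were, and UC 1 resembled UC 2, and UC 4 resembled UC 5, more closely than controls resembled each other. The differences in the listed regions are therefore also given without UC 3 and with these pairs merged.

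Methylation of cytosine in CpG dinucleotides is usually absent from CpG-dense promoters of genes in use, and dense promoter methylation goes with silencing. Many genes used only in the germ line lose methylation in male germ cells and carry it in somatic tissue, whereas genes of motile cilia are also used in ciliated epithelia, which the urothelium is not. Cfap206 encodes an axonemal protein that cilia and sperm flagella need for their radial spokes. Spata18, also called Mieap, encodes a mitochondrial quality control protein that is induced by p53 and is found in the testis. Ccdc185 encodes a coiled-coil protein of the testis.

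Of the 3 promoters, RefSeq gives the sequences of 250 bases before and 50 after the start in the assembly GRCr8, all from the minus strand. They are shown because the measured CpGs can be placed on them: the spacing of CpGs in the rn6 files matched 1 place in each, with 8 of 8 measured CpGs for Cfap206, 22 of 22 for Spata18 and 8 of 8 for Ccdc185, against 3, 5 and 4 at the next best place. The capitals mark the CpGs measured here, and the other CpGs of the window were not measured.
Cfap206, chr5:54095334-54095633: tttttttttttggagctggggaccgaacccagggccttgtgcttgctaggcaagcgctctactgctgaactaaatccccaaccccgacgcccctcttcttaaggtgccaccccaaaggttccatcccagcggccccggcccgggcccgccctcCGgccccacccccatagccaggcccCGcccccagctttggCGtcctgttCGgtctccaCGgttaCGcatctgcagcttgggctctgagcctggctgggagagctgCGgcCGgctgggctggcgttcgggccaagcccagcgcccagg
Spata18, chr14:34912655-34912954: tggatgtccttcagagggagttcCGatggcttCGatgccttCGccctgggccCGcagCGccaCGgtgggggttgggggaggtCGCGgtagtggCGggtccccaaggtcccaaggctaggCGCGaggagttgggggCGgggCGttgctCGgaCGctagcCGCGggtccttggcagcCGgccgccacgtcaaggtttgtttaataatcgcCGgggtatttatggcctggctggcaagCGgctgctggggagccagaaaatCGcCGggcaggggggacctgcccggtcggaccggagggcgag
Ccdc185, chr13:96968406-96968705: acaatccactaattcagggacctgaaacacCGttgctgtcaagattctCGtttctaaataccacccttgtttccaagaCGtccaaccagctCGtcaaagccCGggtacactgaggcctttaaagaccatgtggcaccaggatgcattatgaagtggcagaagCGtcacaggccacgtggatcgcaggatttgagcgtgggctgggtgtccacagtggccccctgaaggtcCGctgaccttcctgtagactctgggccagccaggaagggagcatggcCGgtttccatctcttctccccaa

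The promoter of Spata18 was the densest in CpGs, with 29 CpGs and 68.3% G and C, and its ratio of observed to expected CpGs was 0.874. That of Cfap206 had 19 CpGs, 66.7% G and C and a ratio of 0.583. That of Ccdc185 had 11 CpGs, 54.7% G and C and a ratio of 0.493. Among the 27457 rat promoters of this table the median was 7 CpGs and 52.3% G and C, and 72.0% had fewer CpGs than Cfap206, 87.7% fewer than Spata18 and 58.3% fewer than Ccdc185. The site of the enzyme MspI, CCGG, occurs in 53.0% of those promoters on either strand, and occurred 4 times in that of Cfap206, 5 times in that of Spata18 and 2 times in that of Ccdc185. The site of TaqI, TCGA, occurs in 23.3% of the promoters and was found once, in Spata18. GGGCGG, a GC box, was found 2 times in Cfap206, once in Spata18 and not in Ccdc185, against 34.9% of promoters that hold it. CACGTG, an E-box that overlaps none of the measured CpGs, was found once in Ccdc185, at -78 bp, and occurs in 6.65% of promoters. GTTGCC, a part of the X-box bound by the RFX factors of ciliated cells, was found in none of the 3 windows and occurs in 12.2% of promoters, and TGACG, part of the cyclic AMP response element, was found once in Spata18 and 2 times in Ccdc185, against 22.0% of promoters. These are matches of letters only.

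The listed regions lie on different sides of the start sites. The region of Cfap206 on rn6 chromosome 5 (50193516 to 50193624, 109 bp, 7 CpGs) runs from -95 to 13 bp from the start, and so spans it. That of Spata18 on chromosome 14 (37108451 to 37108541, 91 bp, 3 CpGs) is upstream, from -307 to -217 bp. That of Ccdc185 on chromosome 13 (101163163 to 101163288, 126 bp, 5 CpGs) lies inside the gene, from 29 to 154 bp downstream of the start. The distances come from the matched promoters, and a genome of rn6 was not used here.

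The UCs had higher mean methylation than the controls in all 3 regions, and the levels were far apart between the genes. The study chose the regions by this comparison in these samples, so the values that follow are a description, with no test. Cfap206 was at 1.71%, 2.47% and 1.22% in control 1 to control 3, and at 27.0%, 28.5%, 0%, 24.9% and 24.9% in UC 1 to UC 5. The mean ± SD was 1.80% ± 0.632 for the 3 controls and 21.0% ± 11.9 for the 5 UCs, which differed by 19.2 points. UC 3 lay below every control. It had 0 of 108 methylated calls, which allows a level of up to 2.78%, so no methylation was detectable in that UC at this depth.

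Spata18 was at 6.77%, 2.35% and 0.952% in control 1 to control 3, and at 23.5%, 15.7%, 5%, 36.1% and 28.7% in UC 1 to UC 5. The mean ± SD was 3.36% ± 3.03 for the 3 controls and 21.8% ± 12 for the 5 UCs, or 18.4 points higher. Again UC 3 overlapped the controls: its 95% Wilson interval was 2.31% to 10.5% and that of control 1 was 3.60% to 12.4%. The region has 3 CpGs, and another lies 1 base past its end. With that CpG included, a choice made after seeing the data, the difference was 12.1 points.

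Ccdc185 was at 75.2%, 90.7% and 82.8% in control 1 to control 3, and at 94.8%, 98.5%, 92.6%, 93.0% and 89.1% in UC 1 to UC 5. The mean ± SD was 82.9% ± 7.74 for the 3 controls and 93.6% ± 3.42 for the 5 UCs, or 10.7 points higher. UC 5 was below control 2, and the intervals of these samples, 82.6% to 93.4% and 84.9% to 94.4%, overlapped. Here UC 3 was not apart from the other UCs, but it had only 27 calls and an interval of 76.6% to 97.9%. The difference was 6.88 points without control 1 and 14.6 points without control 2.

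Intervals in these paragraphs cover counting error only, and they are too narrow because CpGs on the same fragment share reads. In none of the 3 regions did every UC lie above every control. The study, by contrast, describes its listed promoters as highly methylated in each of its UCs relative to all normal samples. The levels behind that description were not compared here. Without UC 3, the differences were 24.5 points in Cfap206, 22.6 points in Spata18 and 10.99 points in Ccdc185. The difference of Ccdc185 was the smallest in points, but relative to the part of the region that was unmethylated in the controls it was 62.7%, against 19.6% in Cfap206 and 19.1% in Spata18. This ratio depends on the starting level as much as the difference in points does.

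**Figure D1:**
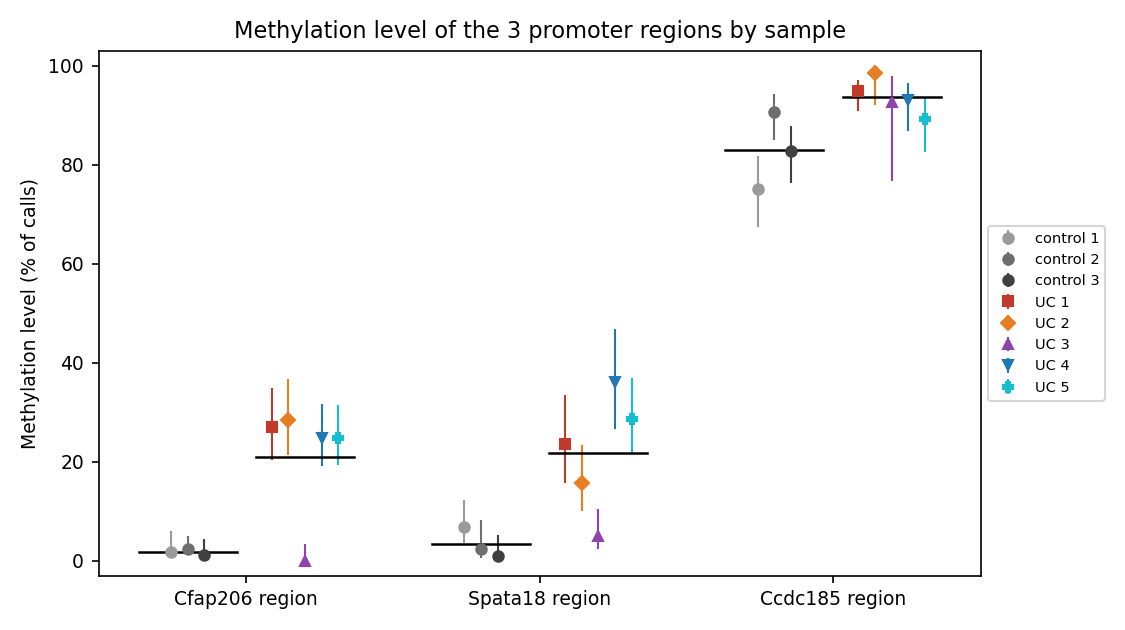
Methylation level (% of calls) of the listed region of each gene in the 3 controls and 5 UCs. Each sample is a point with its Wilson interval, which covers counting error only, and the black line is the group mean. UC 3 sits at 0% in Cfap206 and 5% in Spata18 beside the controls, and in Ccdc185 all samples lie between 75.2% and 98.5%.

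CpG by CpG, the methylation of the listed region of Cfap206 in the UCs differed between neighbouring positions. Of the 7 CpGs of the region, 5 had no methylated call in any control. At -38 bp the level was 0% in every control (0 of 113 calls, which allows up to 2.65%) and 57.1%, 69.2%, 0%, 34.3% and 34.2% in UC 1 to UC 5. At -47 bp it was 4.35%, 7.27% and 3.12% in the controls and 53.6%, 57.7%, 0%, 34.3% and 34.2% in the UCs. UC 1 and UC 2 were thus the highest at both, UC 4 and UC 5 intermediate, and UC 3 without a methylated call. At -32 bp this order did not hold: the controls were at 4.35%, 5.26% and 3.03% and UC 1 to UC 5 at 21.4%, 3.85%, 0%, 17.1% and 18.4%, so that UC 2 was within the range of the controls.

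Other CpGs of this region showed another order of the UCs. At -71 bp, UC 1 to UC 5 were at 4.76%, 15.0%, 0%, 41.2% and 39.1%, against 0% in every control. At 9 bp, UC 4 was at 38.9% (7 of 18 calls) and UC 5 at 26.7% (4 of 15 calls), and the other 6 samples were at 0%. UC 1, UC 2 and UC 3 had only 7, 6 and 7 calls there, which allow levels as high as those of UC 4 and UC 5. The order of the UCs at 9 bp is thus uncertain. UC 4 and UC 5 had the highest measured levels at -71 and 9 bp, which flank the positions where UC 1 and UC 2 were highest. Between them, at -56 bp, the controls had 0% (0 of 73 calls, which allows up to 4.11%) and UC 5 had 4.55%, the only value above 0%. The CpG in the MspI site at 13 bp had 0 of 100 methylated calls over all 8 samples, which allows up to 3%. The CpG in the MspI site just past the other end, at -96 bp, did not exceed 7.14% in any sample.

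Downstream in Cfap206, the 3 CpGs at 372, 412 and 435 bp were partly methylated in the controls. Together they were at 51.2%, 29.8% and 39.1% in control 1 to control 3 and at 95.3%, 89.5%, 51.5%, 52.2% and 58.1% in UC 1 to UC 5, so that every UC was above every control, UC 3 by the smallest margin. At 372 bp this held for the CpG alone, with 33.3% to 70.0% in the controls and 80.0% to 100% in the UCs. At 412 bp, UC 1 and UC 2 were at 95.2% and 92.9%, while UC 3, UC 4 and UC 5 were at 44.7%, 17.8% and 31.6%, within or below the 18.2% to 46.5% of the controls. At 435 bp, UC 3 was at 37.9% and the other UCs were at 85.7% to 90.9%, against 32.3% to 43.8% in the controls. UC 4 and UC 5 were thus above the controls at 435 bp and not at the neighbouring 412 bp.

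Spata18 had the most CpGs at or near 0%. Of its 25 CpGs, 16 had no methylated call in any control, and in 14 of the 22 outside the listed region the mean of the UCs was under 5%. Within the listed region, the CpG at -290 bp was at 4%, 9.09% and 4.55% in control 1 to control 3 and at 29.4%, 39.1%, 0%, 42.9% and 46.4% in UC 1 to UC 5. That at the TaqI site at -217 bp was at 7.58%, 2.13% and 0% and at 30.4%, 15.3%, 4.76%, 42.9% and 31.7%. That at -226 bp was lower, with 0% to 7.14% in the controls and 4.55%, 0%, 8.33%, 22.2% and 12.2% in the UCs. All UCs but UC 3 were thus above every control at -290 and -217 bp, and only UC 3, UC 4 and UC 5 were at -226 bp.

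Toward the start of Spata18, methylation came in short runs. The 4 CpGs from -208 to -187 bp had pooled levels of 1.05%, 0% and 0% in control 1 to control 3 and of 32.3%, 20.2%, 1.85%, 15.0% and 7.89% in UC 1 to UC 5. Among them the CpG at -208 bp was at 0% in every control and at 50%, 34.6%, 3.70%, 40% and 15.8% in the UCs. The pooled level of these 4 CpGs was highest in UC 1 and UC 2, although UC 4 was above UC 2 at -208 bp and UC 5, at 5.26%, was above UC 2, at 3.85%, at -187 bp. The 2 CpGs at -130 and -128 bp were instead at 0% in every control and at 5%, 0%, 5.26%, 31.0% and 44.7% in UC 1 to UC 5, highest in UC 4 and UC 5. The next 7 CpGs, from -114 to -74 bp, had a pooled level of 0% to 2.38% in the controls and of at most 3.03% in any UC. The highest values of single CpGs among them were 11.1% in control 1, at -74 bp, and 10.5% in UC 5, at -98 bp. Closer to the start, the CpG at -14 bp was at 0% in every control and at 7.41%, 4.17%, 4.88%, 28.2% and 22.4% in the UCs. The sets of CpGs inside the members were chosen after their values were seen.

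Upstream of the listed region of Spata18 the levels were low in both groups. The CpG 1 base past its end, at -308 bp, was at 3.95% to 11.8% in the controls and 2.22% to 13.2% in the UCs. That at -357 bp was at 0% in every control and at 0% to 11.5% in the UCs. The 20 CpGs downstream of the region had a pooled level of 0% to 1.15% in the controls and 1.26% to 10.2% in the UCs, so that every UC was above every control, UC 3 by the smallest margin. UC 3 had 6 of 478 methylated calls and control 1 had 5 of 435, so these samples were not told apart.

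Ccdc185 was methylated over most of its window in both groups. Of the 27 CpGs measured in all samples, 23 had a control mean over 50%, and the control means ranged from 37.2% to 95.5%. In the listed region the 5 CpGs had control means of 74.5% to 92.3% and UC means of 85.2% to 99.3%. The CpG at 154 bp was at 87.1% to 100% in the controls and 95.8% to 100% in the UCs, that at 131 bp at 71.0% to 87.5% and 87.5% to 100%, and that at 67 bp at 66.7% to 82.6% and 66.7% to 100%. The groups met or overlapped at each of them. At 100 bp, the controls were at 77.4%, 96.9% and 84.2% and the UCs at 100%, 100%, 100%, 100% and 96.4%, so that control 2 was above UC 5. At 102 bp, UC 5 was at 64.3%, next to the 63.3% of control 1, while the other UCs were at 83.3% to 97.8%.

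Departures from the controls in both directions were seen outside the region of Ccdc185. At 208 bp the controls were at 58.8%, 78.3% and 48.1% and the UCs at 100%, 90%, 100%, 100% and 96.4%. At -949 bp they were at 50%, 57.1% and 64.0% and the UCs at 93.9%, 88.9%, 83.3%, 89.7% and 95.3%. Every UC was above every control at these CpGs. The 5 CpGs from -201 to -87 bp had pooled levels of 79.0%, 75.2% and 73.3% in control 1 to control 3 and of 72.1%, 78.5%, 80.4%, 40.8% and 42.9% in UC 1 to UC 5, so that UC 4 and UC 5 had the lowest pooled levels. Among them, the CpG in the MspI site at -148 bp was at 73.8% to 80.0% in the controls, 61.0%, 64.4% and 82.6% in UC 1 to UC 3, and 28.6% and 35.3% in UC 4 and UC 5. The CpG at -87 bp went the other way, with 75%, 85.4% and 100% in the controls and 31.6%, 63.6%, 100%, 94.1% and 81.2% in UC 1 to UC 5. Just upstream of this set, the CpG at -219 bp was at 61.5% to 85.7% in the controls. UC 1 to UC 5 were at 20%, 50%, 63.6%, 21.4% and 25% there, on 4 to 14 calls, so lower levels were not limited to UC 4 and UC 5. At -260 bp the controls were at 28.6% to 60% and the UCs at 60% to 100%.

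Within the gene body of Ccdc185 the 6 CpGs from 402 to 524 bp had pooled levels of 56.9%, 57.7% and 57.9% in control 1 to control 3 and of 87.6%, 79.6%, 53.3%, 49.4% and 47.6% in UC 1 to UC 5. By this pooled level UC 1 and UC 2 were above the controls and UC 3, UC 4 and UC 5 below them, but single CpGs went both ways. At 524 bp the controls were at 77.8%, 60% and 71.8%, UC 4 and UC 5 were above them at 90.5% and 86.7%, and UC 2 was below them at 50%. At 419 bp UC 3, at 72.2%, was above the 27.3% to 52.2% of the controls. At 435 bp the order was that of the pooled level, with 54.5%, 25.0% and 59.1% in the controls, 100% and 92.3% in UC 1 and UC 2, and 23.5%, 7.14% and 11.1% in UC 3, UC 4 and UC 5. The control level at this CpG rests on 4 to 22 calls. The flanks of Ccdc185 as a whole differed by only 3.27 points (68.5% ± 1.71 in the controls and 71.8% ± 9.67 in the UCs), against 23.7 points for the flanks of Cfap206 and 5.66 points for those of Spata18. With at least 10 reads per CpG the flanks of Ccdc185 differed by 2.03 points, and their difference was 0.747 points without UC 1, 0.786 points without UC 2, 5.62 points without UC 4 and 5.55 points without UC 5.

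**Figure D2:**
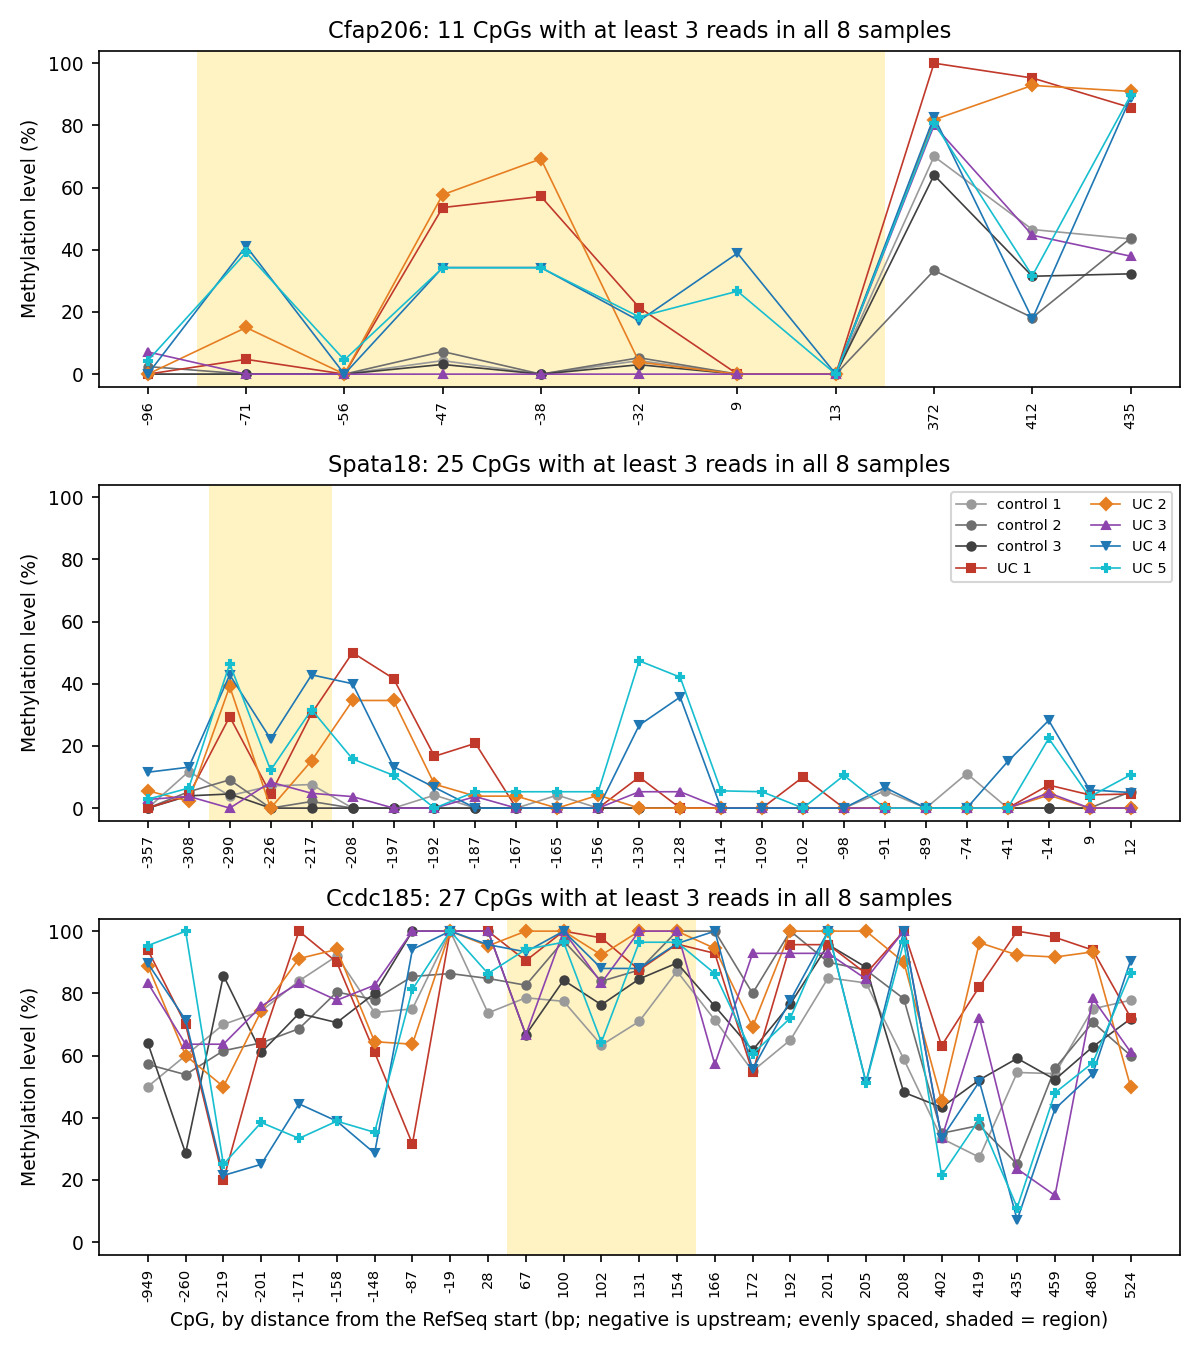
Methylation level (%) of each CpG with at least 3 reads in all 8 samples, in order along each gene, labelled by distance from the start in bp (CpGs are evenly spaced, not to scale), with 1 line per sample and the listed region shaded. The plot shows low controls and a few peaks in the UCs for Spata18 and for the listed region of Cfap206. At 372 to 435 bp in Cfap206 the controls are partly methylated. For Ccdc185 most levels are high in both groups.

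Over the 63 CpGs of the 3 genes, the UC mean was above the control mean in 50 and below it in 11. The study chose the listed regions for this direction. There the UC mean was above in 6 of 7 CpGs in Cfap206, 3 of 3 in Spata18 and 5 of 5 in Ccdc185. The share of all CpGs with a higher UC mean was not counted, so nothing is read from the 50. All UCs exceeded all controls in 5 of the 63 CpGs (1 in Cfap206, 2 in Spata18 and 2 in Ccdc185). This is 7.94%, against 8.05% of all 2052737 CpGs measured in every sample. None of these 5 lies in a listed region. The share of CpGs with every UC above every control was thus near that of the genome. No CpG had every UC below every control, against 6.07% of all CpGs. In 16 CpGs of Spata18 and 5 CpGs of the listed region of Cfap206, no control had a methylated call. There no UC could lie below the controls. The 6.07% is taken over CpGs of any control level, so nothing is read from the lack of CpGs with every UC below.

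Tiles of 200 bp were tested over the genome, and 8 tiles with at least 3 CpGs in every sample touched the windows of the 3 genes. Of these, 2 were called higher in the UCs, the tiles that hold the CpGs of the listed regions of Cfap206 and Spata18, against 9.40% of all 258144 tiles, and 0 were called lower, against 7.22%. A call is an adjusted p-value under 0.05 in the quasi-binomial model with limma-moderated dispersion and Benjamini-Hochberg adjustment, and a difference over 10 points. In 1 of the 8 tiles, the downstream one of Cfap206, every UC exceeded every control, against 15.4% of all tiles, and in 0 tiles every UC was below every control, against 10.0%. Neither tile was called without control 2, and 1 was called without control 1, control 3, UC 1, UC 2 or UC 4 and with limma on M values. As the study chose these genes by the same comparison, nothing is read from the calls. The same holds for the counts of tiles with every UC above or below every control.

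Distances between samples at the 3 genes were set beside those over the genome. At the genes they are over single CpGs, and over the genome over tiles that pool at least 3 CpGs. Their sizes are therefore not compared, only the order of the pairs. Over all tiles, the root mean square difference per tile was 5.99 points between UC 1 and UC 2, 6.18 points between UC 4 and UC 5, 7.06 to 7.22 points between controls and 13.3 to 13.98 points for the remaining 8 pairings of UCs. At the CpGs of Cfap206 these distances were 9.25, 5.97, 5.96 to 14.02 and 25.4 to 35.1 points. At those of Spata18 they were 7.26, 9.14, 1.48 to 3.82 and 12.7 to 17.3 points. At those of Ccdc185 they were 12.5, 10.0, 14.2 to 15.8 and 25.5 to 33.6 points. In each gene UC 1 and UC 2, and UC 4 and UC 5, were the closest pairs of UCs, as over the genome. They were closer than the controls were to each other only at Ccdc185, within the range of the controls at Cfap206 and farther apart than the controls at Spata18.

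UC 3 stood nearer to the controls than the other UCs over all tiles, at 12.2 to 12.8 points against 18.3 to 19.7 points. Its distance to the controls was 4.50 to 16.6 points at Cfap206 and 3.01 to 3.96 points at Spata18, where the other UCs were 25.2 to 40.3 and 12.1 to 18.9 points away. At Ccdc185 it was 16.9 to 22.6 points, against 22.8 to 29.7 points for the other UCs. When UC 1 and UC 2, and UC 4 and UC 5, were merged into 1 sample each, after seeing the data, the differences in the listed regions were 15.7 points in Cfap206, 15.2 points in Spata18 and 10.2 points in Ccdc185.

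Coverage was not used to choose the genes, and was compared over the samples as calls in the listed region with its 1-kb flanks per 1000000 calls of the sample. Cfap206 had 3.61, 6.76 and 4.40 such calls in control 1 to control 3 and 3.13, 3.77, 4.34, 5.41 and 5.04 in UC 1 to UC 5. Spata18 had 10.5, 9.31 and 9.88 in the controls and 8.72, 12.8, 13.4, 9.33 and 9.48 in the UCs. Ccdc185 had 11.1, 17.3 and 14.5 in the controls and 14.1, 11.1, 8.19, 14.03 and 10.8 in the UCs. In each gene the groups overlapped. The means were 4.92 ± 1.64 and 4.34 ± 0.924 for Cfap206 (SD, n = 3 and 5, exact permutation test, two-sided, p = 0.589, adjusted over the 3 genes 0.589), and 9.89 ± 0.590 and 10.7 ± 2.17 for Spata18 (exact permutation p = 0.518, adjusted 0.589). For Ccdc185 they were 14.3 ± 3.09 and 11.7 ± 2.50 (exact permutation p = 0.143, adjusted 0.429). The smallest p that 3 samples against 5 allow is 0.0179, and a difference in coverage was not detected at this sample size.

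**Figure D3:**
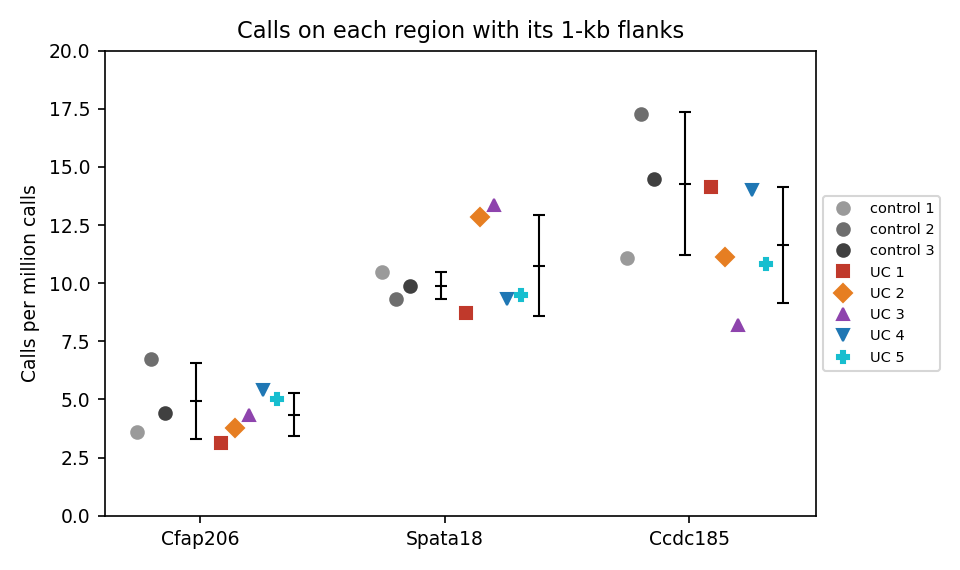
Calls per 1000000 calls of the sample in the listed region of each gene with its 1-kb flanks, for the 3 controls and 5 UCs, with each sample as a point and the group mean ± SD. The groups overlap in each gene, and the lowest value of Ccdc185 is the 8.19 of UC 3.

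Ccdc185 started from the highest level of the list. Of the 246 listed regions, 202 were covered, that is, every sample had 3 or more CpGs with 3 or more reads, and their control means had a median of 2.57%, with a median difference of 17.6 points. All UCs exceeded all controls in 188 of them, a list that the study chose on these samples, but in none of the 3 members. Ccdc185 had the highest control mean of the 202 and the second highest UC mean, and its difference of 10.7 points ranked 188th from the top, close to the limit of 10 points by which the study selected regions. On either side of that limit lay Eif5 at 9.97 points and Nfasc at 10.2 points, named for this position only. Only 7 of the 202 regions had a control mean over 50%: Ccdc185 at 82.9%, Mpped1 at 72.5%, Six2 at 64.7%, Spesp1 at 63.9%, Piwil1 at 63.6%, RGD1359334 at 62.5% and Mir219-2 at 51.8%. The genes among these that are no germ cell or cilia genes were named after their values were seen. Cfap206 and Spata18 ranked 134th and 71st by control mean and were near the median difference.

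The list holds 13 other genes of germ cells and cilia, taken by known role, of which 9 were covered in all samples. Their median was 15.7% in the controls and 42.5% in the UCs, with a median difference of 25.3 points and a range of 13.4 to 47.8 points. For the other 190 covered regions the median control mean was 2.33% and the median difference 17.2 points. All UCs exceeded all controls in 9 of the 9 and in 179 of the 190. The study chose the list on these samples, so these counts are not independent evidence of a direction. The 4 that were not covered are Ccdc105, Msh4, Oxct2a and Spaca1.

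Among the genes of sperm and spermatids, Spesp1, an acrosomal protein, was at 63.9% ± 4.03 in the controls and 93.2% ± 5.93 in the UCs (SD, n = 3 and 5), the pair most like Ccdc185 in this group. Papolb, a testis poly(A) polymerase, was at 21.7% and 55.0%, Spata32 at 11.7% and 41.8%, and Nkapl at 15.7% and 30.3%. Among the genes of meiosis and of the piRNA pathway, Piwil1, a PIWI protein, was at 63.6% and 81.1%, Mei1, a meiotic recombination gene, at 17.2% and 42.5%, Rbm46, an RNA-binding protein of germ cells, at 2.53% and 25.5%, and Tdrd6, a tudor-domain protein, at 3.77% and 17.2%. Pih1d3, a factor for the assembly of axonemal dynein, was at 4.97% ± 2.41 and 52.8% ± 25.4, where UC 3 was at 10.5% and the remaining UCs at 51.2% to 75.8%. Germ cell genes thus appeared on both sides of the contrast, with high and with low control levels. UC 3 was the lowest of the UCs in 6 of the 9 regions. The share of the other covered regions where UC 3 was lowest was not counted, so this is not read as a trait of these genes.

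**Figure D4:**
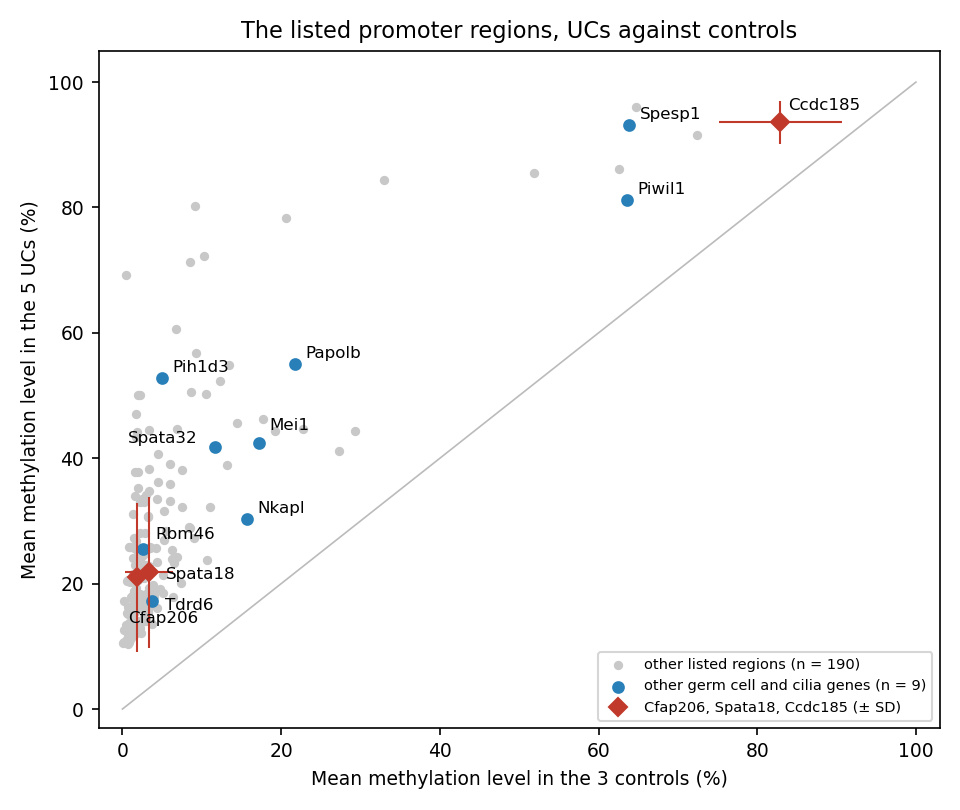
Mean methylation level of the 202 covered listed regions in the 5 UCs (vertical axis, %) against the 3 controls (horizontal axis, %), with the 3 genes in red with ± SD, the other 9 germ cell and cilia genes in blue, and the line of equal levels. Cfap206 and Spata18 lie among the mass of regions near 0% in the controls, and Ccdc185 is the point farthest to the right.

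The regions of the list whose levels were most like each member, by the root mean square difference over the 8 samples, were Isl1 (3.64 points), Tcerg1l (4.80 points) and Lrrc24 (4.93 points) for Cfap206. For Spata18 they were Rbm46 (3.46 points), LOC102548847 (3.53 points) and Arhgef25 (4.41 points). For Ccdc185 they were Mpped1 (9.01 points), Spesp1 (12.9 points) and RGD1359334 (15.7 points), so the nearest neighbours of Ccdc185 were farther away than those of the other genes.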

How the data were processed

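RRBS calls of 3 control bladders and 5 UCs were used. The authors cut DNA with TaqI and MspI, used RRBSMAP to align the reads to rn6, retained those that mapped to 1 place and discarded duplicates by barcode. For each CpG the deposited files hold 2 counts, of C calls and of C plus T calls. They also give an effective C and T count, which the authors lowered for base variants and which is an expected count (estimated count), used only as an alternative. HOMER is named in the submitters' processing notes.

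The level of a region was the sum of C calls over the sum of calls on CpGs with at least 3 reads in that sample, and group values are means ± SD of samples. Distances from the start are to the C of the CpG on the forward strand, negative upstream. Intervals are 95% Wilson intervals, and a count of 0 is given with the level that 3 calls allow. Tiles of 200 bp that had 3 or more CpGs with 3 or more reads in every sample were tested with a quasi-binomial model whose dispersion was moderated by limma 3.58.1 in R 4.3.3, with Benjamini-Hochberg adjustment over all tiles. The model was tested on simulated data. Coverage was compared by an exact permutation test over 56 divisions of the samples. Python 3.11.15, numpy 2.4.6, pandas 2.3.3, scipy 1.17.1 and matplotlib 3.10.9 were used.

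The members and lists were chosen with earlier results of these data known. The genes named are the members, 13 germ cell and cilia genes of the study's list and the 3 regions most like each member, and other genes are named where a count refers to them. Single CpGs are named inside the regions and, outside them, where the level changes or where a pooled level does not describe them, the latter chosen after their values were seen. The labels do not tie samples to animals, so p-values measure the spread between these samples, which may be technical. The study's own group values for its listed regions were not used.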

Additional observations from a re-analysis of the deposited data

Results flagged for a closer look

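Among the 5 UCs, a sample stood apart from the other 4 by the gap to its neighbour in 2 of 15 measures of level and coverage, where chance gives about 1 in 20 for independent samples, which the UCs may not be, and the listed regions were chosen by the study on these levels. In the listed region of Cfap206 it was UC 3, at 0% (0 of 108 calls) against 24.9% to 28.5% in the other UCs. In the 2 CpGs upstream of the listed region of Spata18 it was UC 4, at 12.5% (8 of 64 calls) against 2.74% to 5.15% in the other UCs and 3.26% to 9.09% in the controls. Its 95% Wilson interval of 6.47% to 22.8% overlapped those of the other UCs.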

How the results depend on the processing

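Of 164 recomputed values, 134 were counted as unchanged, 28 moved further and 2 turned. For levels, unchanged means that the direction was kept and the move was within the SD of the UCs. For counts it means a change of at most 1.5 times. For coverage it means that the ratio stayed on the same side of 1 and the adjusted permutation p was not under 0.05. These limits are wide. The SD of the UCs was 9.67 points for the flanks of Ccdc185, above their difference of 3.27 points. A fall from 18.4 to 12.1 points in the listed region of Spata18 also counted as unchanged. With so few divisions of the samples, an adjusted p under 0.05 was hardly reachable. The count of unchanged values is therefore no measure of stability. With 1 sample left out, the difference in the listed region of Ccdc185 ranged from 6.88 to 14.6 points, tiles called higher from 11729 (without control 3) to 32918 (without UC 3), tiles called lower from 10087 to 23530 in the same order, and the member tiles called higher from 0 to 2. With at least 10 calls in place of 3 CpGs, 470445 tiles could be tested in place of 258144, and 39334 were higher and 37775 lower. With at least 10 reads per CpG 145489 could be tested, and they were 14727 and 10016, and when UC 1 was merged with UC 2 and UC 4 with UC 5, after seeing the data, 12109 and 10523. A difference over 20 points left 15082 higher and 0 member tiles. With limma on M values, with tiles shifted by 100 bp and with merged UCs, 1 member tile was called. The ratio of coverage in UCs to controls turned to 0.989 for the listed region of Spata18 alone, from 1.09, and that of Cfap206, 0.881, ranged from 0.777 to 1.08 with 1 sample left out, the highest without control 2. The cause was not tested.

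Control and UC samples share replicate numbers, but the deviations of same-numbered samples correlated at 0.0149, -0.0133 and 0.0401, so the numbers were not taken to pair them. With the replicate number as a block, the quasi-binomial model called 0 tiles higher, 0 lower and 0 member tiles, with 77828 tiles at an unadjusted p under 0.05, while limma on M values without the block called 19188 higher and 15675 lower. The block leaves few residual degrees of freedom. The listed region of Ccdc185 has no value with at least 10 reads per CpG, since UC 3 has no such CpG there. The listed regions rest on 27 to 283 calls in a sample, which limits their precision.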
